A study of Mus musculus with 12 samples.

Results

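The Zfp900-series genes are the mouse protein-coding genes whose symbol is Zfp followed by a number of the 900s, taken from the GENCODE M21 annotation of GRCm38. There were 63 such genes among the 55401 genes in the files, and all 63 were listed there. Zfp939, which has a number of the 900s but is annotated as a transcribed unprocessed pseudogene, was not counted. The members were studied in RNA sequencing data from 3 lines of TPS cells (totipotent potential stem cells) and 3 lines of EPS cells (extended pluripotent stem cells), each line sequenced as 2 technical replicates, which gave 12 libraries. The comparison of TPS with EPS lines asks which transcripts differ between the 2 culture states. TPS cells were grown on feeder cells in the medium labelled VCED with 4C basic medium. The paper's methods name the CPEC medium for these cells, taken here to be the same, which holds CD1530 (an agonist of RARγ), VPA (an inhibitor of histone deacetylases), EPZ004777 (an inhibitor of DOT1L) and an inhibitor of GSK3. EPS cells were grown on feeder cells in LCDM medium. The feeders of the TPS culture were inactivated mouse embryonic fibroblasts, and the strain, the passage and the origin of each sequenced line (EPS cells or 2-cell embryos) were not given in the sources used here.

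Most genes of this series encode KRAB zinc finger proteins. In such a protein, tandem Cys2His2 zinc fingers read DNA, each finger contacting a few bases, and the KRAB domain recruits TRIM28 (also KAP1), which in turn brings the histone H3 lysine 9 methyltransferase SETDB1 and HP1 proteins to the bound site. Many of these proteins bind retrotransposons and silence them in embryonic cells, and the genes lie in clusters that grew by repeated local duplication. The symbols follow the order of naming and not descent, so neighbouring numbers need not be close relatives.

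The label was checked against the coding sequences. A KRAB sequence pattern was found in the translated longest coding sequence of 60 of the 63 members (95.2%), against 164 of 328 other numbered Zfp genes (50%) and 1.51% of all 21897 protein-coding genes with a coding sequence. Zfp956, Zfp957 and Zfp974 lacked it. At least 1 finger, read as a pair of cysteines and a pair of histidines at the usual spacing, was present in 60 members, with a median of 11 fingers and a range from 0 in Zfp935, Zfp957 and Zfp972 to 21 in Zfp974. Both features were present in 58 members. The genes were spread over 12 chromosomes, with 16 on chromosome 4, 13 on chromosome 17, 11 on chromosome 2, 8 on chromosome 7, 5 on chromosome 8, 3 on chromosome 13, 2 on chromosome 5 and 1 each on chromosomes 6, 9, 10, 14 and 19.

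The first finger with its linker is shown, as 84 bases of GRCm38 coding sequence, for the 3 members whose counts differed between TPS and EPS lines in the test described below. All 3 genes lie on the minus strand of chromosome 7, and capitals mark the codons of the 2 cysteines and the 2 histidines that hold the zinc ion.
Zfp940, chr7:29845641-29845724: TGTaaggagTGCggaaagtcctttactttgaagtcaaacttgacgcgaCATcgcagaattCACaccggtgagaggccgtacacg
Zfp976, chr7:42613935-42614018: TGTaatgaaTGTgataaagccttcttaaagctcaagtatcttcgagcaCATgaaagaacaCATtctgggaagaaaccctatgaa
Zfp941, chr7:140812341-140812424: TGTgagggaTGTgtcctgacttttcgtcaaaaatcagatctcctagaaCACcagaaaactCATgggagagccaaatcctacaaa
The zinc-binding codons stand at the same places in all 3 stretches, and the bases between the second cysteine and the first histidine, which hold the DNA-contacting residues, are spelled differently in each.

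Other members are so alike that reads are hard to place. The coding sequences of Zfp966, Zfp967, Zfp968 and Zfp969 on chromosome 2 were 1455 bases long with 0 differences among the 4 genes, and those of Zfp965 and Zfp973 were 954 bases long with 0 differences. On chromosome 4, Zfp991 and Zfp992 differed at 8 of 1719 coding bases (99.53% identical) and Zfp987 and Zfp988 at 94 of 1899 bases (95.05%). One window of each pair is shown, from stretches where both pairs differ more than over their whole length. Each holds 90 coding bases on the plus strand of GRCm38, and capitals mark the bases at which the pair differs, 2 in the first pair and 16 in the second.
Zfp991, chr4:147179229-147179318: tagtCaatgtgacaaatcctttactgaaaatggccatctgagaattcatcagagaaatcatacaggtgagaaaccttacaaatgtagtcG
Zfp992, chr4:146466885-146466974: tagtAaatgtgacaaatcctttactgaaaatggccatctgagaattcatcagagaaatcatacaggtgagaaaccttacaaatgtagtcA
Zfp987, chr4:146125588-146125677: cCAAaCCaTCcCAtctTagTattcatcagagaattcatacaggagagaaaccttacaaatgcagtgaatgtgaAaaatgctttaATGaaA
Zfp988, chr4:147332699-147332788: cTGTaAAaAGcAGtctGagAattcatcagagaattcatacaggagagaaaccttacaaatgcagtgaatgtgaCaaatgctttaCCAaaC
In all, 18 of the 63 members had a transcript at least 95% identical to a transcript of another gene over at least 50% of its length. Of these, 8 were on chromosome 4, 7 on chromosome 2 and 1 each on chromosomes 5, 13 and 17, while no member on chromosome 7 had one. Zfp947 and Zfp995 on chromosome 17, whose coding sequences differed at 65 of 1311 bases (95.04% identical), were not among the 18. How the authors' counting treated reads that fit several genes is not given in the sources used here, so the values of these 18 genes may hold reads of their copies.

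Libraries held between 13676051 and 21821707 counts, and the replicate was the line, with its technical replicates added up. Technical replicates of EPS line 3 and EPS line 1 differed most (chi-square per degree of freedom of 22.3 and 9.61 over all genes, against 2.58 to 3.83 in the other 4 lines), and in EPS line 3 the median member was 0.33 lower in replicate 2 on the log2 scale. All 16 fibroblast markers had a higher mean in TPS lines, 12 of them past the test, with a summed level of 3334 to 5750 CPM (counts relative to TMM-scaled library totals) in TPS lines and 294 to 1247 CPM in EPS lines; both groups were grown on feeders. No marker was at 0 in every line, and Fap was at 0 in EPS line 1. Pluripotency markers fell in 5 of 8 cases and all 8 markers of the 2-cell stage rose. Whether fibroblast RNA has a part in the members' values was not tested, and in bulk RNA fewer cells of a type and less RNA per cell cannot be told apart.

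The level of a member is given in CPM, scaled by TMM factors that correct for composition, and, where genes are compared with each other, in CPM per kb of annotated exon. Over the 6 lines the median tested member stood at 3.13 CPM per kb, against 3.55 over all 17468 tested genes and 2.43 over the tested other numbered Zfp genes. There were 16 members above 10 CPM per kb, 15 of them on chromosome 4, the other being Zfp960 on chromosome 17 with 11.6 CPM per kb. The 16 genes of chromosome 4 made up between 60.7% and 71.2% of the summed CPM of all members in each line, not scaled by exon length. Most counts assigned to the family thus fell to this chromosome, where 8 of the 16 members have near-identical transcripts. The highest by the mean of the 6 lines were Zfp978 with 49.8 CPM per kb, Zfp993 with 40.1 and Zfp979 with 27.7, all of chromosome 4. In EPS lines alone Zfp991 (33.9) and Zfp988 (32.1) stood above Zfp979 (31.3). Zfp978 has a transcript 95.63% identical to one of Zfp600 over 96.88% of its length and overlaps Gm8178 on the same strand, and Zfp993 has near-identical copies too, so their levels may hold reads of other genes. By line, Zfp978 had 51.2, 77.3 and 79.3 CPM in EPS lines 1 to 3 and 90.4, 38.9 and 47.6 CPM in TPS lines 1 to 3. Its highest and lowest values were both in TPS lines, so the groups overlapped (log2 fold change, TPS minus EPS, of -0.23, SE 0.33, edgeR adjusted p = 0.648). Zfp979 had 87.1, 112 and 187 CPM in EPS lines and 101, 95.7 and 99.3 CPM in TPS lines, a fitted change of -0.38 (SE 0.26, edgeR adjusted p = 0.328). The 3 TPS lines lay close together within the range of the EPS lines. Outside chromosome 4 the members' levels were lower, with medians, among chromosomes with a tested member, from 0.30 CPM per kb for the single member on chromosome 19 to 3.67 for chromosome 8. Zfp935 on chromosome 13 and Zfp957 on chromosome 14 had 0 counts in every line, which allows a level of up to 0.0979 CPM (3 counts) in the line where 3 counts weigh most. This limit covers counting error only. The transcript of Zfp935 is 99.94% identical over its whole length to that of Gm49359, an overlapping gene on the same strand that was counted at 1.40 CPM in TPS lines and 1.48 CPM in EPS lines on average, so a listed 0 for Zfp935 need not mean that it gave no reads.

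**Figure D1:**
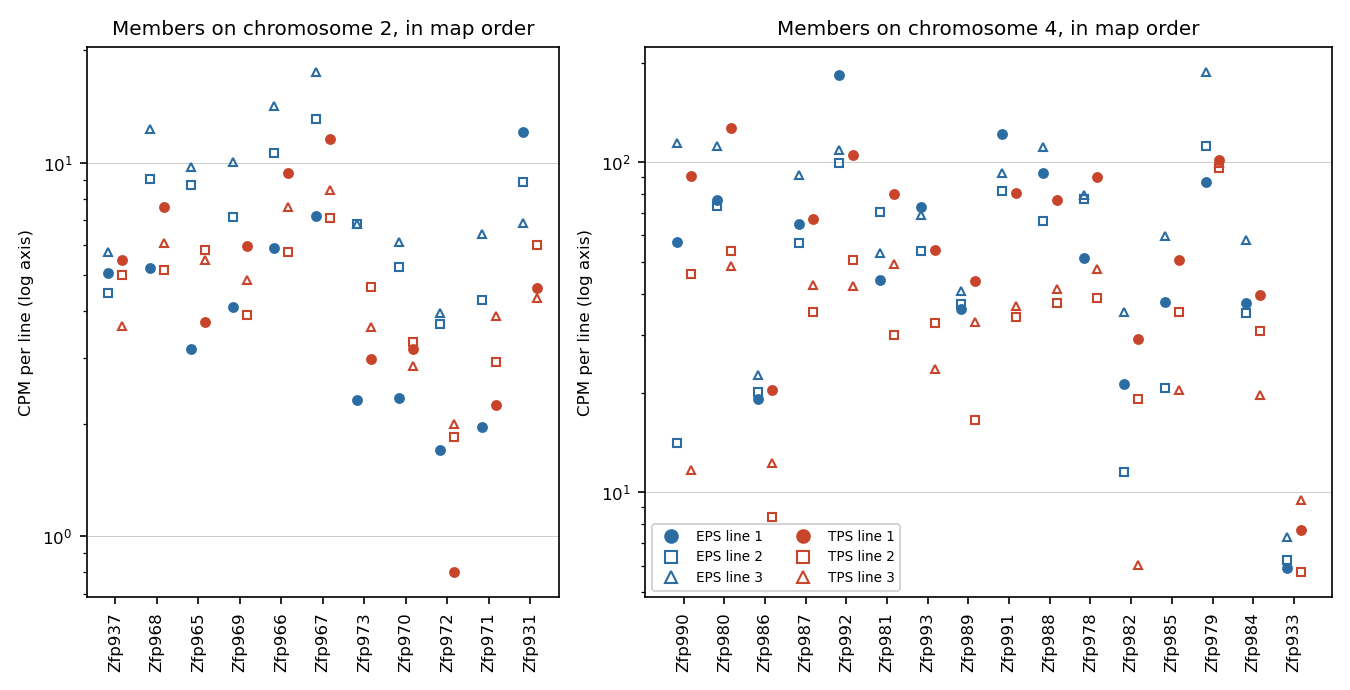
CPM (log axis) of each member on chromosome 2 (left) and chromosome 4 (right), in map order, for the 3 EPS lines (blue) and the 3 TPS lines (red); circles, squares and triangles are lines 1, 2 and 3. TPS line 1 stood highest among TPS lines for 15 of the 16 members on chromosome 4, and EPS line 1 stood lowest among EPS lines for 9 of the 11 members on chromosome 2.

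Between the culture states most members leaned lower in TPS lines, and few of these differences were larger than the spread between lines. Of the 61 tested members, 0 rose and 3 fell in TPS lines at an adjusted p under 0.05 (edgeR quasi-likelihood test, 3 lines against 3, Benjamini-Hochberg adjustment over all tested genes). At an unadjusted p under 0.05, edgeR gave 1 higher and 10 lower, which is 18.0% of tested members against 37.0% of all tested genes. DESeq2 called 1 member higher (1.64%) and 7 lower (11.5%) after adjustment, against 3445 higher and 1664 lower (7.71%) of the 21582 genes it tested. With edgeR and adjustment, 14.4% of all tested genes were called higher and 7.34% lower, and 21.7% in either direction, beside 3 of 61 members (4.92%), all of them lower. The share of members called lower was thus under the share of all genes with edgeR and over it with DESeq2. In the other numbered Zfp genes 16 rose and 19 fell of 310 tested (11.3%). The fitted change was nevertheless below 0 for 52 of the 61 members (85.2%), against 50.2% of all tested genes and 59.4% of the other numbered Zfp genes. The median member changed by -0.38 on the log2 scale, against -0.09 in the other numbered Zfp genes and -0.00 over all tested genes, and the fitted values ran from -1.02 in Zfp972 to 1.85 in Zfp951. The members come from the same lines and some may share reads with their copies, so they are not independent of each other, and this lean is given as a description. The summed CPM of all members was 1100 ± 341 (SD, n = 3 lines) in TPS lines and 1490 ± 266 in EPS lines, with ranges of 894 to 1494 and 1241 to 1771 that overlapped. Without EPS line 3 the median was -0.20, with 46 of 61 below 0, and without TPS line 1 it was -0.53, with 54 of 61 below 0. The count below 0 was smaller still without TPS line 2 (45 of 61, median -0.26) and without TPS line 3 (44 of 61, median -0.34). Over the 44 tested members with no near-identical transcript, Zfp947 and Zfp995 among them, the median was -0.20.

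**Figure D2:**
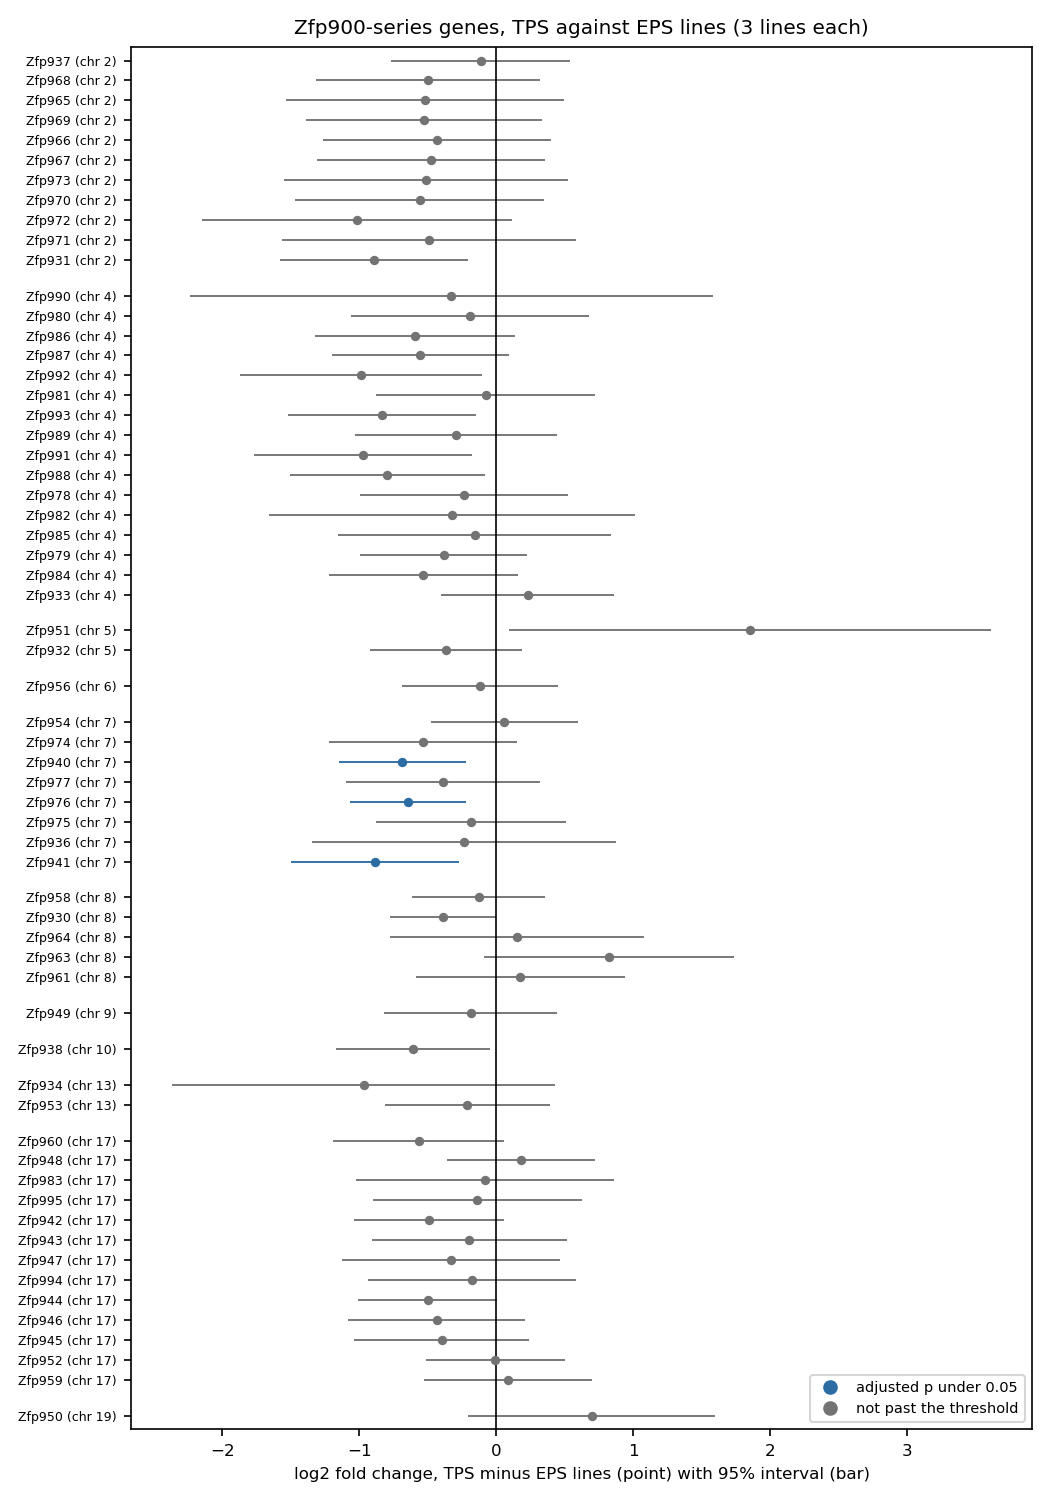
Fitted log2 fold change, TPS minus EPS lines, of the 61 tested members, ordered by chromosome and position, with the 95% interval of the edgeR fit as a bar; blue marks an adjusted p under 0.05. Most points lie left of 0, 52 of 61, and the 3 blue genes are on chromosome 7, while most intervals cross 0.

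The 3 members that fell, Zfp976, Zfp940 and Zfp941, are KRAB zinc finger genes of chromosome 7 that lie apart from each other, with 18, 10 and 9 fingers by the pattern. Their targets are not described here. Zfp976 (ENSMUSG00000074158.9, chr7:42609526-42642588) had 21.01, 17.9 and 21.3 CPM in EPS lines 1 to 3 and 14.3, 12.3 and 11.8 CPM in TPS lines 1 to 3. Every TPS line was below every EPS line, and the lines of a group lay close together. Its mean was 12.8 ± 1.32 CPM (SD, n = 3) in TPS lines and 20.1 ± 1.91 in EPS lines, a log2 fold change of -0.64 (SE 0.18, edgeR adjusted p = 0.0411). Zfp940 (ENSMUSG00000050855.16, chr7:29833620-29853669) had 22.2, 15.8 and 17.4 CPM in EPS lines and 11.9, 11.3 and 11.2 CPM in TPS lines. The TPS lines were almost level, at 11.5 ± 0.391 CPM (SD, n = 3), and all below the EPS lines at 18.5 ± 3.33 CPM, of which line 1 was highest. The log2 fold change was -0.69 (SE 0.20, edgeR adjusted p = 0.0450). Zfp941 (ENSMUSG00000060314.13, chr7:140807449-140822178) had 21.3, 16.9 and 19.3 CPM in EPS lines and 7.06, 13.4 and 10.7 CPM in TPS lines. Here too the groups did not overlap, with 10.4 ± 3.18 CPM (SD, n = 3) in TPS lines and 19.2 ± 2.17 in EPS lines and TPS line 1 lowest (log2 fold change -0.88, SE 0.26, edgeR adjusted p = 0.0497). An antisense gene, Gm26554, overlaps Zfp940 and a gene on the same strand, Gm45785, overlaps Zfp941, and the counting of such reads is not given in the sources used here.

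These calls stood near the threshold. With 1 line left out, edgeR called Zfp940 and Zfp976 in 0 of 6 fits and Zfp941 in 1 of 6 (without TPS line 2), with adjusted p-values up to 0.125, 0.129 and 0.119, although the fold change stayed negative in all 6 fits for each of the 3 genes. With factors that ignore composition (library size alone) the 3 changes were -0.50, -0.53 and -0.73 for Zfp976, Zfp940 and Zfp941, and edgeR called none of them.

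**Figure D3:**
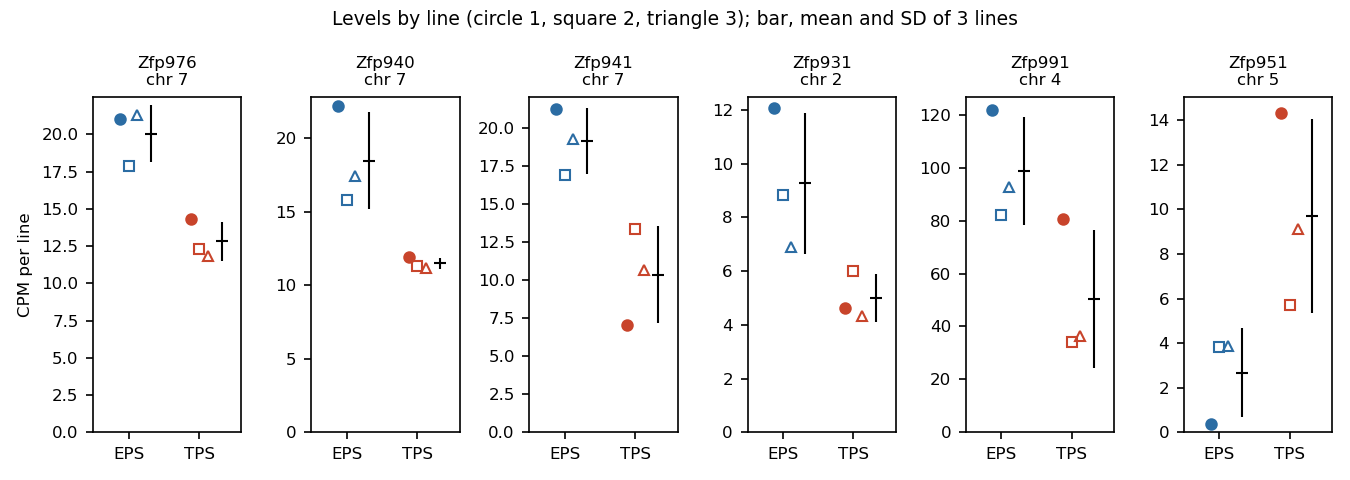
CPM of each line (circle, line 1; square, line 2; triangle, line 3) for the 3 members past the threshold, Zfp976, Zfp940 and Zfp941, for Zfp931 and Zfp991 just outside it and for Zfp951, the member with the highest fitted change; blue is EPS, red is TPS, and black bars give mean ± SD of 3 lines on axes that start at 0. In each panel the groups of lines do not overlap, narrowly in Zfp991 (80.6 CPM in TPS line 1 and 81.9 CPM in EPS line 2).

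The 2 genes nearest the threshold on the inside were Zfp940 and Zfp941, and on the outside Zfp931 on chromosome 2 and Zfp991 on chromosome 4. Zfp931, a short KRAB gene with 7 fingers, had 12.1, 8.85 and 6.88 CPM in EPS lines and 4.62, 6.01 and 4.35 CPM in TPS lines (log2 fold change -0.89, SE 0.30, edgeR adjusted p = 0.0675). Zfp991 had 122, 81.9 and 92.7 CPM in EPS lines and 80.6, 34.0 and 36.5 CPM in TPS lines (log2 fold change -0.97, SE 0.34, edgeR adjusted p = 0.0809). Its near-identical partner Zfp992 had 184, 99.2 and 108 CPM in EPS lines and 105, 50.6 and 42.1 CPM in TPS lines (-0.99, SE 0.38, edgeR adjusted p = 0.101). In both genes of this pair, whose windows are printed above, line 1 was the highest line of its group. TPS line 1 lay within the range of the EPS lines in Zfp992 and just below it in Zfp991. The counts of the pair summed to 306, 181 and 201 CPM in EPS lines and 185, 84.5 and 78.7 CPM in TPS lines. Without TPS line 1, edgeR called both, with log2 fold changes of -1.49 for Zfp991 and -1.49 for Zfp992 and adjusted p-values of 0.0101 and 0.0248. In the other 5 fits with 1 line left out edgeR called neither, with adjusted p-values of 0.101 to 0.208 for Zfp991 and 0.105 to 0.247 for Zfp992, whose change was -0.69 without EPS line 1. Zfp993, which shares 99.6% identity with the Zfp991 transcript, had 73.4, 53.9 and 69.1 CPM in EPS lines and 54.0, 32.5 and 23.6 CPM in TPS lines (-0.83, SE 0.30, edgeR adjusted p = 0.0826), and its groups met at 53.9 and 54.0 CPM. It too was called by edgeR without TPS line 1 (-1.22, adjusted p = 0.0194) and in none of the other 5 such fits (0.0920 to 0.181; -0.60 without TPS line 3). DESeq2 on all 6 lines called Zfp931, Zfp991, Zfp992 and Zfp993 lower, at adjusted p-values of 0.0176, 0.0262, 0.0368 and 0.0373.

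Separation of the groups of lines was seen in a smaller share of members than of all genes. Every TPS line was below every EPS line in 9 of the 61 tested members, against 19.1% of all tested genes. Every TPS line was above every EPS line in 2 of the 61, against 23.6% of all tested genes. In either direction, 18.0% of tested members did not overlap, against 42.7% of all tested genes. Besides the genes named so far, the 9 were Zfp974, Zfp930, Zfp938 and Zfp944, whose log2 fold changes were -0.53, -0.39, -0.61 and -0.50 at adjusted p-values (edgeR) of 0.230, 0.134, 0.110 and 0.140. The 2 members above were Zfp951 on chromosome 5 and Zfp963 on chromosome 8, which are named here after their values were seen. Zfp951 had 0.359, 3.82 and 3.87 CPM in EPS lines and 14.3, 5.70 and 9.14 CPM in TPS lines. EPS line 1 was far below the other EPS lines (10.8 times below the highest), and the error was wide, with a log2 fold change of 1.85 (SE 0.76, 95% interval 0.09 to 3.61, edgeR adjusted p = 0.119). DESeq2 called it higher, at an adjusted p of 0.0213. Zfp963 was low throughout, with 0.652, 0.441 and 0.654 CPM in EPS lines and 1.12, 0.777 and 1.21 CPM in TPS lines (log2 fold change 0.83, SE 0.39, edgeR adjusted p = 0.168). Over all 61 tested members, the called ones included, the intervals were wide, with a median SE of 0.31. Of the 61 intervals, 37 reached below -1 and 6 above 1, so for most of the family a change of -1 on the log2 scale lies inside the interval.

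By chromosome, the medians were -0.51 on chromosome 2 (11 of 11 members below 0), -0.36 on chromosome 4 (15 of 16), -0.46 on chromosome 7 (7 of 8), -0.20 on chromosome 17 (11 of 13) and 0.15 on chromosome 8 (2 of 5). All tested genes on these chromosomes had medians of -0.00, -0.02, -0.06, -0.17 and -0.01. These medians moved with single lines. With 1 line left out they ran from -0.83 (without EPS line 1) to -0.21 (without EPS line 3) on chromosome 2, from -0.81 (without TPS line 1) to -0.20 (without EPS line 3) on chromosome 4, from -0.66 (without TPS line 1) to -0.35 (without TPS line 3) on chromosome 7, and from -0.35 (without TPS line 1) to -0.06 (without TPS line 2) on chromosome 17. With edgeR no member of chromosomes 2, 4, 8 or 17 passed the threshold. It called 18.9%, 19.3%, 20.6% and 19.6% of all tested genes on these 4 chromosomes, in either direction. DESeq2 called 1 member lower on chromosome 2 (Zfp931) and 3 on chromosome 4 (Zfp991, Zfp992 and Zfp993). The identical quartet of chromosome 2, Zfp966 to Zfp969, summed to 22.4, 39.9 and 54.0 CPM in EPS lines and 34.5, 21.9 and 27.0 CPM in TPS lines. EPS line 1 lay within the TPS range and the other EPS lines above it. The identical pair Zfp965 and Zfp973 summed to 5.48, 15.6 and 16.6 CPM in EPS lines and 6.71, 10.5 and 9.11 CPM in TPS lines, with the same EPS line lowest.

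The spread between lines of a group is given beside that of other genes, as a description. The median within-group SD of log2 CPM was 0.402 over the 61 tested members, against 0.262 over 295 other numbered Zfp genes and 0.296 over 13176 tested genes between the lowest and the highest mean CPM of the members, a wide range that does not match the levels gene by gene. It was 0.518 on chromosome 2 and 0.513 on chromosome 4, and 0.278 on chromosome 7 and 0.313 on chromosome 17. Among TPS lines, line 1 was highest for 15 of 16 members on chromosome 4 but for 5 of 11 on chromosome 2, where it was lowest for 4, and on chromosome 17 line 3 was highest for 8 of 13. Among EPS lines, line 3 was highest for 12 of 16 members on chromosome 4 and for 10 of 11 on chromosome 2, where line 1 was lowest for 9 of 11. On chromosome 4 the lowest EPS line was line 2 for 10 members and line 1 for 6. TPS line 1 was also the TPS line with the highest fibroblast sum (5750 CPM, against 3334 and 3383 CPM), EPS line 1 was the EPS line with the lowest (294 CPM, against 1158 and 1247 CPM), and EPS line 3 was the line whose technical replicates differed most. The part of these in the spread was not tested. On the scale of the library total alone, without TMM factors, the summed level of the chromosome 4 members in both technical replicates of EPS line 3 (1364 and 1108 CPM) was above that of every library of EPS lines 1 and 2 (791 to 933 CPM).

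**Figure D4:**
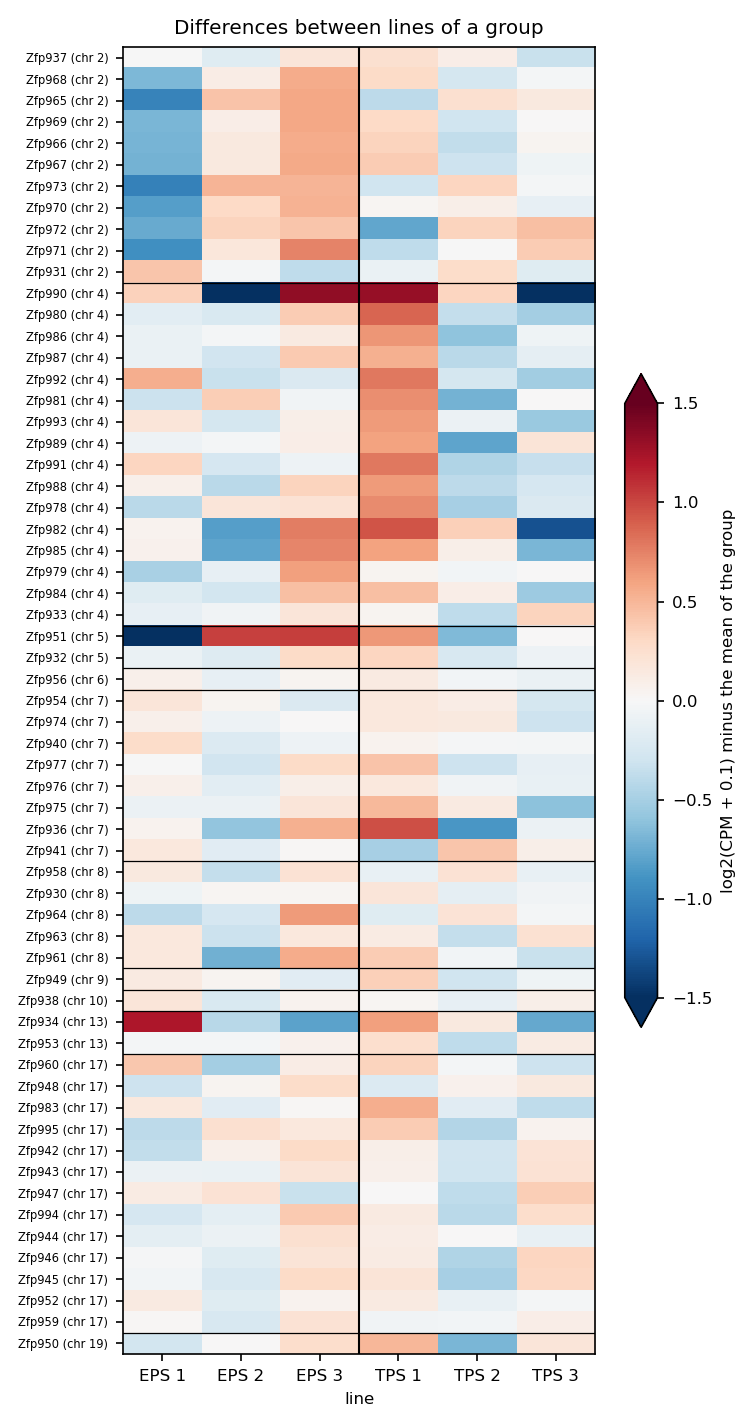
Level of each tested member in each line as log2(CPM + 0.1) minus the mean of its group, with members in rows by chromosome and the 6 lines in columns; red is above the group's mean, blue below, and the colour scale ends at 1.5. TPS line 1 is red along nearly the whole of chromosome 4 (highest TPS line in 15 of 16 members), and EPS line 1 is blue along most of chromosome 2 (lowest EPS line in 9 of 11).

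By the within-group SD of log2 CPM, the most variable member was Zfp990 on chromosome 4 (1.51, against 1.35 in Zfp951), named here for its spread. Zfp990 had 57.4, 14.1 and 114 CPM in EPS lines and 90.5, 45.9 and 11.7 CPM in TPS lines. Its highest line was 8.09 times its lowest within EPS and 7.72 times within TPS, and the interval of its log2 fold change ran from -2.24 to 1.58. Within EPS the ratio was larger in Zfp951, at 10.8 times. Zfp982, of the same chromosome, had 21.3, 11.5 and 35.1 CPM in EPS lines and 29.1, 19.2 and 6.03 CPM in TPS lines, with EPS line 3 and TPS line 1 highest and EPS line 2 and TPS line 3 lowest as in Zfp990. At the other end, Zfp956 on chromosome 6, 1 of the 3 members without the KRAB pattern, ranged only from 4.999 to 5.74 CPM in EPS lines and from 4.67 to 5.49 CPM in TPS lines. Over the 6 lines, after the mean of each group was removed, the mean correlation between a pair of members was 0.54 for the 120 pairs on chromosome 4, 0.38 for the 55 pairs on chromosome 2, 0.28 for chromosome 7, 0.32 for chromosome 17 and 0.22 for the 1537 pairs on different chromosomes. These are descriptions over 6 points that share libraries and, for near-identical members, reads.

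The promoters of the members were read from RefSeq sequences of GRCm38.p6, which cover 250 bases before to 50 bases after the start, and 53 of the 63 members matched. They held a median of 8 CG dinucleotides, against 7 over all 32851 promoters. The 10 matched members of chromosome 2 had a median of 5.0 and the 10 of chromosome 4 a median of 4.5, while the 8 of chromosome 7 had 9.0 and the 12 of chromosome 17 had 10.5. The letters CCGGAAG, a core of ETS factor motifs, were found on either strand in 14 member promoters (26.4%), against 8.86% of all promoters of this length. Of these 14, 5 belong to Zfp965, Zfp966, Zfp967, Zfp968 and Zfp973, duplicates on chromosome 2 that are not independent cases. They were in 6 of 10 promoters on chromosome 2 and in 0 of 10 on chromosome 4. The CRE letters TGACGTCA were found in 1 member promoter (1.89%, against 1.79% of all), and the YY1 letters AAGATGGCG in 0 (against 1.40% of all). The NRF1 motif was searched too and was in 0 member promoters (against 0.971% of all). Of these 4 motifs, searched on both strands, none contains another. For the members past the threshold, Zfp940, Zfp976 and Zfp941, the 250 bases before their starts are shown on the transcribed (minus) strand with each CG in capitals.
Zfp940, chr7:29853649-29853898: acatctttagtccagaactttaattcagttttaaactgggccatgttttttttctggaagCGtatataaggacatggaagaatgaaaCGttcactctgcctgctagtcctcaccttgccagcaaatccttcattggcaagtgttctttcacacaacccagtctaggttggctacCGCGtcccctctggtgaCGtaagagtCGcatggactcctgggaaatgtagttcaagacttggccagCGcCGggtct
Zfp976, chr7:42642605-42642854: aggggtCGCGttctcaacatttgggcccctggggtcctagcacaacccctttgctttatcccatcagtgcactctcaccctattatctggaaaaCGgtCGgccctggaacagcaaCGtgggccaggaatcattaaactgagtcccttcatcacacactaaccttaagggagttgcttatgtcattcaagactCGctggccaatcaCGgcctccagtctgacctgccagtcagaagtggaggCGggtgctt
Zfp941, chr7:140822179-140822428: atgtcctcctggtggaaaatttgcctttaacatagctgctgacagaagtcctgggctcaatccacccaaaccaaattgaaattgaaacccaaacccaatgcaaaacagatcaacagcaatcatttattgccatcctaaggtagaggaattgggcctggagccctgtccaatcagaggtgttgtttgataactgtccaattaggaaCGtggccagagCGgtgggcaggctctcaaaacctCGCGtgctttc
The first 2 hold 8 CG each and the third 4, and CCGGAAG is in none of the 3.

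The RNA of genes known to act with KRAB zinc finger proteins, a few such zinc finger genes among them, was counted in the same libraries. Of 21 genes of this pathway, all tested, 0 rose and 3 fell in TPS lines, so 14.3% were called lower, against 7.34% of all tested genes. Every TPS line was below every EPS line in 7 of the 21 (33.3%, against 19.1% of all tested genes). The median change was -0.25. Trim28, the corepressor that KRAB domains bind, was high in every line, with 1662, 1583 and 1689 CPM in EPS lines and 1320, 1537 and 1803 CPM in TPS lines, and its groups overlapped (log2 fold change -0.08, SE 0.15, edgeR adjusted p = 0.728). Setdb1, the methyltransferase, had 112, 129 and 171 CPM in EPS lines and 99.5, 97.6 and 113 CPM in TPS lines (-0.41, SE 0.17, edgeR adjusted p = 0.133). The genes that fell were Cbx5, which encodes HP1α, Uhrf1, which recruits the maintenance DNA methyltransferase, and Zfp57, a KRAB zinc finger gene that protects imprints. Cbx5 had 421, 400 and 482 CPM in EPS lines and 276, 335 and 294 CPM in TPS lines (-0.52, SE 0.14, edgeR adjusted p = 0.0329). Uhrf1 had 693, 665 and 686 CPM in EPS lines and 428, 522 and 484 CPM in TPS lines (-0.51, SE 0.13, edgeR adjusted p = 0.0270). Zfp57 had 286, 256 and 189 CPM in EPS lines and 96.3, 91.8 and 172 CPM in TPS lines (-1.02, SE 0.28, edgeR adjusted p = 0.0360). In all 3 genes the groups did not overlap. Without TPS line 1, and with library size alone, edgeR called 0 of the 21 lower, and without EPS line 3 it called 1 lower and 1 higher. Zfp809, a KRAB zinc finger gene known for silencing of proviruses, had 13.7, 18.2 and 30.7 CPM in EPS lines and 43.9, 30.4 and 26.9 CPM in TPS lines (0.69, SE 0.32, edgeR adjusted p = 0.162).

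The lean of the family toward lower values kept its sign under the processing choices tried, although its size and the genes called moved. The median member lay between -0.53 and -0.20 in the 17 fits, and its distance from the median of all tested genes lay between -0.60 and -0.21.

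**Figure D5:**
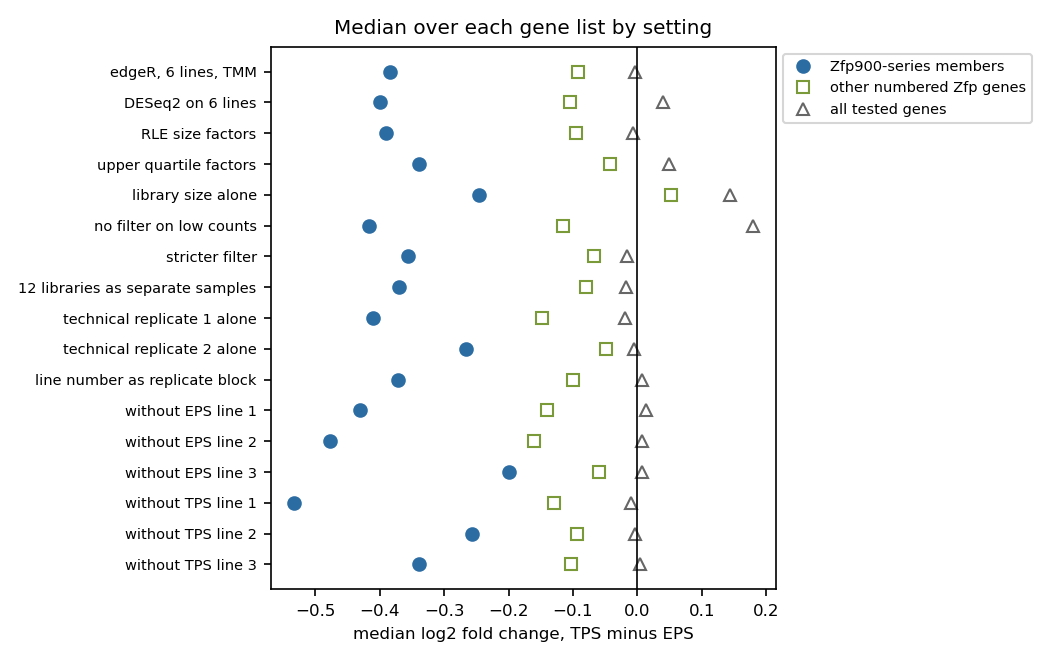
Median log2 fold change, TPS minus EPS lines, over the tested members (filled blue circles), the other numbered Zfp genes (green squares) and all tested genes (grey triangles) in each of the 17 fits. The members' median is left of both others in every fit, from -0.53 without TPS line 1 to -0.20 without EPS line 3.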

How the data were processed

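Reads of 12 libraries (oligo(dT)-selected RNA, paired-end) were trimmed with fastp 0.19.7 and mapped to GRCm38.p6 (mm10) with STAR 2.7.3a by the authors, who deposited unnormalized counts per gene. The counting tool, annotation, strand use and multi-mapping rule are not given in the sources used here. Gene identifiers were matched to GENCODE M21 without the version (55141 of 55401). Technical replicates were summed per line by the labels, and 3 TPS lines were compared with 3 EPS lines with edgeR 4.0.16 in R 4.3.3 (quasi-likelihood test, TMM, filterByExpr with a minimum of 10 counts and a total of 15, Benjamini-Hochberg threshold 0.05). The SE is the log2 fold change divided by the square root of F. Nothing in the labels says that the lines were derived independently. Counts without molecular identifiers are not independent molecules, so floors cover counting error only. Near-identical transcripts were found with blastn 2.17.0. The test was run on simulated counts with 4-fold changes and 1 dispersion for all genes (0.106). It recovered 168 of 192 changed genes and called 9 unchanged ones. The members' median absolute log2 fold change was 0.40, so this run does not give the power for changes of their size. Alternatives were DESeq2 1.42.0, other factors, filters, replicates and thresholds. Members and lists were chosen with earlier results of these data known. Text named the members past the threshold, the 2 on either side of it, the 3 highest per kb, Trim28, Setdb1 and the called pathway genes; others are named with the reason. Pearson correlations used log2(CPM + 0.1).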

Additional observations from a re-analysis of the deposited data

How the results depend on the processing

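The number of members lower in TPS lines was 3 with TMM and with RLE factors, beside 1282 and 1303 of all 17468 tested genes. It was 7 of 61 with DESeq2 (all genes, 1664 of 21582), and 0 with upper quartile factors (1015 of 17468) and library size alone (750 of 17468). Without a filter on low counts it was 5 (1535 of 32608), and with a stricter filter (over 1 CPM in 3 lines) 1 (1101 of 14648). With the 12 libraries as separate samples it was 16 of 61, beside 3610 of 15512 genes. Technical replicate 1 alone gave 1, Zfp941 (1029 of 15596), and replicate 2 alone 1, Zfp931 (1063 of 16108). At a threshold of 0.01 it was 0 (258 genes), and with 1 line left out 0 to 5 (493 to 1047 genes). The 5 were called without TPS line 1 (602 genes), and 1 without TPS line 2 (767 genes). The number higher was 1 with DESeq2 (beside 3445 of 21582 genes) and 1 without the filter (beside 3290 of 32608), Zfp951 in both. With the 12 libraries, where technical replicates count as lines, it was 2, Zfp951 and Zfp963, beside 4067 of 15512 genes. The median change was -0.25 with library size alone, -0.20 over members with no near-identical transcript, and -0.53 to -0.20 with 1 line left out. With library size alone the median of all tested genes moved to 0.14, and 2985 rose and 750 fell, against 2509 and 1282 with TMM. Zfp990, which was not called, ran from -1.11 to 0.45 with 1 line left out and turned above 0 without EPS line 3 (0.45) and without TPS line 3 (0.13). With the line number as a replicate block, 2 members were lower, Zfp991 and Zfp992, beside 721 of 17468 tested genes. None of the 3 called without the block was among them, and 0 of the 21 pathway genes were lower. The deviations of same-numbered lines correlated at 0.02, -0.12 and 0.04, and those of differently numbered lines at -0.24 to 0.23. Whether same-numbered lines share more than a number is not given in the sources used here. The cause of the changes between settings was not tested. The precision is limited by 3 lines a group, with a median SE of 0.31 over the members.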
